A study of Arabidopsis thaliana with 2 samples.

Results

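The array's annotation names many Arabidopsis genes by locus alone. Among these, 81 gave a signal of at least 200 after 1 h of red light, at least 3 times their dark signal. They were picked from 11933 locus-named probe sets, out of 22746 non-control probe sets on the array. A probe set is the group of array spots that reads 1 transcript. A locus name, such as AT5G48490, gives a gene's chromosome and its order along it, and the array's annotation held no other symbol for these genes. The same signals chose the members and measure them, so every ratio of a member is a description and no test was made. Of the 5052 locus-named probe sets with a red light signal of at least 200, these 81 were 1.60%.

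The material was whole seedlings of the Landsberg erecta accession, whose seeds had 2 days of cold in the dark and 2 h of white light before 7 days of dark growth at 23 °C. The red light group then received 1 h of red light that peaked at 630 nm (fluence rate 10 µmol m-2 s-1, as an approximate value), and the dark group stayed 1 h longer in darkness. Each group was 1 array of 5 pooled seedlings, from 20 ng of total RNA, so no difference has a replicate check. Fewer cells of a type and less RNA per cell cannot be told apart. The labels disagree on the sucrose in the medium, which is not given here.

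Seedlings that germinate in the dark grow a long, pale hypocotyl and hold undeveloped plastids, the etioplasts. Red light converts phytochrome to its active form, which acts against the PIF transcription factors and starts greening: etioplasts become chloroplasts, elongation slows and flavonoids and other protective compounds are made. Many of the genes switched on in this change are nuclear genes whose proteins are imported into plastids.

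Signals are linear intensities as the authors deposited them, on a common scale. The highest of 27 probe sets for bacterial transcripts, which serve as background, reached 11.5 on the dark array and 20.5 on the other. Hybridization controls, RNAs added at hybridization, numbered 18; their median log2 ratio was -0.30 (red light over dark), with 17 below 0. The 3' and 5' signals of control transcripts reflect RNA integrity and how evenly transcripts were labelled, which cannot be told apart here. Actin's 3' signal was 6.55 times its 5' signal on the red light array and 8.44 times on the dark array. GAPDH gave 1.60 and 2.05, and ubiquitin 3.0 and 3.05. The order of the arrays turned for actin with the other set of control probes (40.1 and 35.8), which read 2.06 and 2.11 for GAPDH, then 4.59 and 5.36 for ubiquitin. The part of these differences in the members' ratios was not tested.

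**Figure D1:**
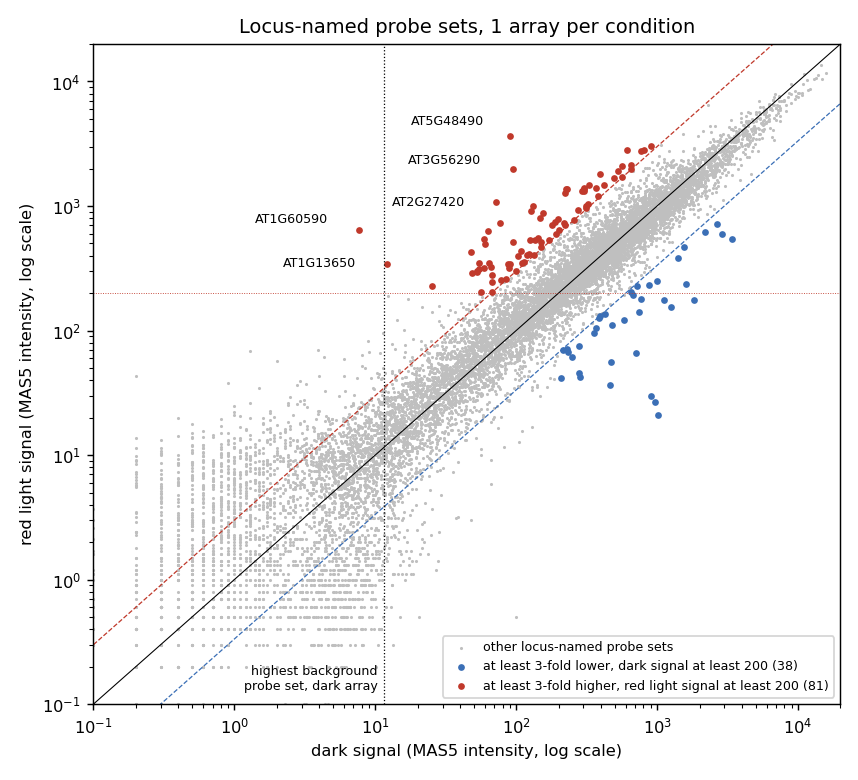
Red light signal against dark signal of locus-named probe sets (MAS5 intensity, both axes on a log scale), 1 array per condition; probe sets with a signal of 0 are not drawn. Red points are the 81 members, blue points the 38 locus-named probe sets at least 3-fold lower; dashed lines mark 3-fold, and AT1G60590 is the member left of the background line at 11.5.

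The members' ratios ran from 3.004 to 82.7, with a median of 3.91. A ratio of at least 4 was reached by 37 members, of at least 5 by 26 and of at least 10 by 5. Red light signals lay between 202 and 3646, and 27 members had a signal of at least 1000. Dark signals lay between 7.7 and 903. All 81 have an entry in the TAIR10.1 gene table as protein-coding genes. Each is read by 1 probe set, and no other probe set that the annotation names reads any of them; what the unlisted probe sets read is not known here.

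The opposite rule, a dark signal of at least 200 that was at least 3 times the red light signal, took 38 locus-named probe sets, 0.773% of 4918. The split depended on the scale: against 81 higher and 38 lower (68.1% higher), centring on the hybridization controls gave 165 and 24 (87.3% higher), and quantile normalization gave 70 and 46 (60.3%). Genes with another symbol reached the members' thresholds in 13 of 947 probe sets, 1.37%, so the share among locus-named probe sets, 1.60%, lay near it. Of symbol-named probe sets 1.70% met the opposite rule. Over all non-control probe sets the shares were 2.01% higher and 1.03% lower.

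The gene table gives no function for these loci and gave a plastid-related word for 0 of the 81, as for 3 of all 11798 locus-named genes, so it cannot show a plastid share. Roles below are general knowledge of Arabidopsis loci, assigned after the values were known, and are given for 57 of the 81. On that basis 16 of the 81 members, 19.8%, are plastid proteins encoded in the nucleus. This is a lower count, since 24 members have no role here and members of other role groups may be plastid proteins too. The members are all the locus-named genes that met the rule, not a sample of them, so no interval is given for the share. Its error from the assigned roles and from the lack of replicate arrays was not measured. The same share among the other locus-named genes was not counted, so nothing is said of an excess.

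**Figure D2:**
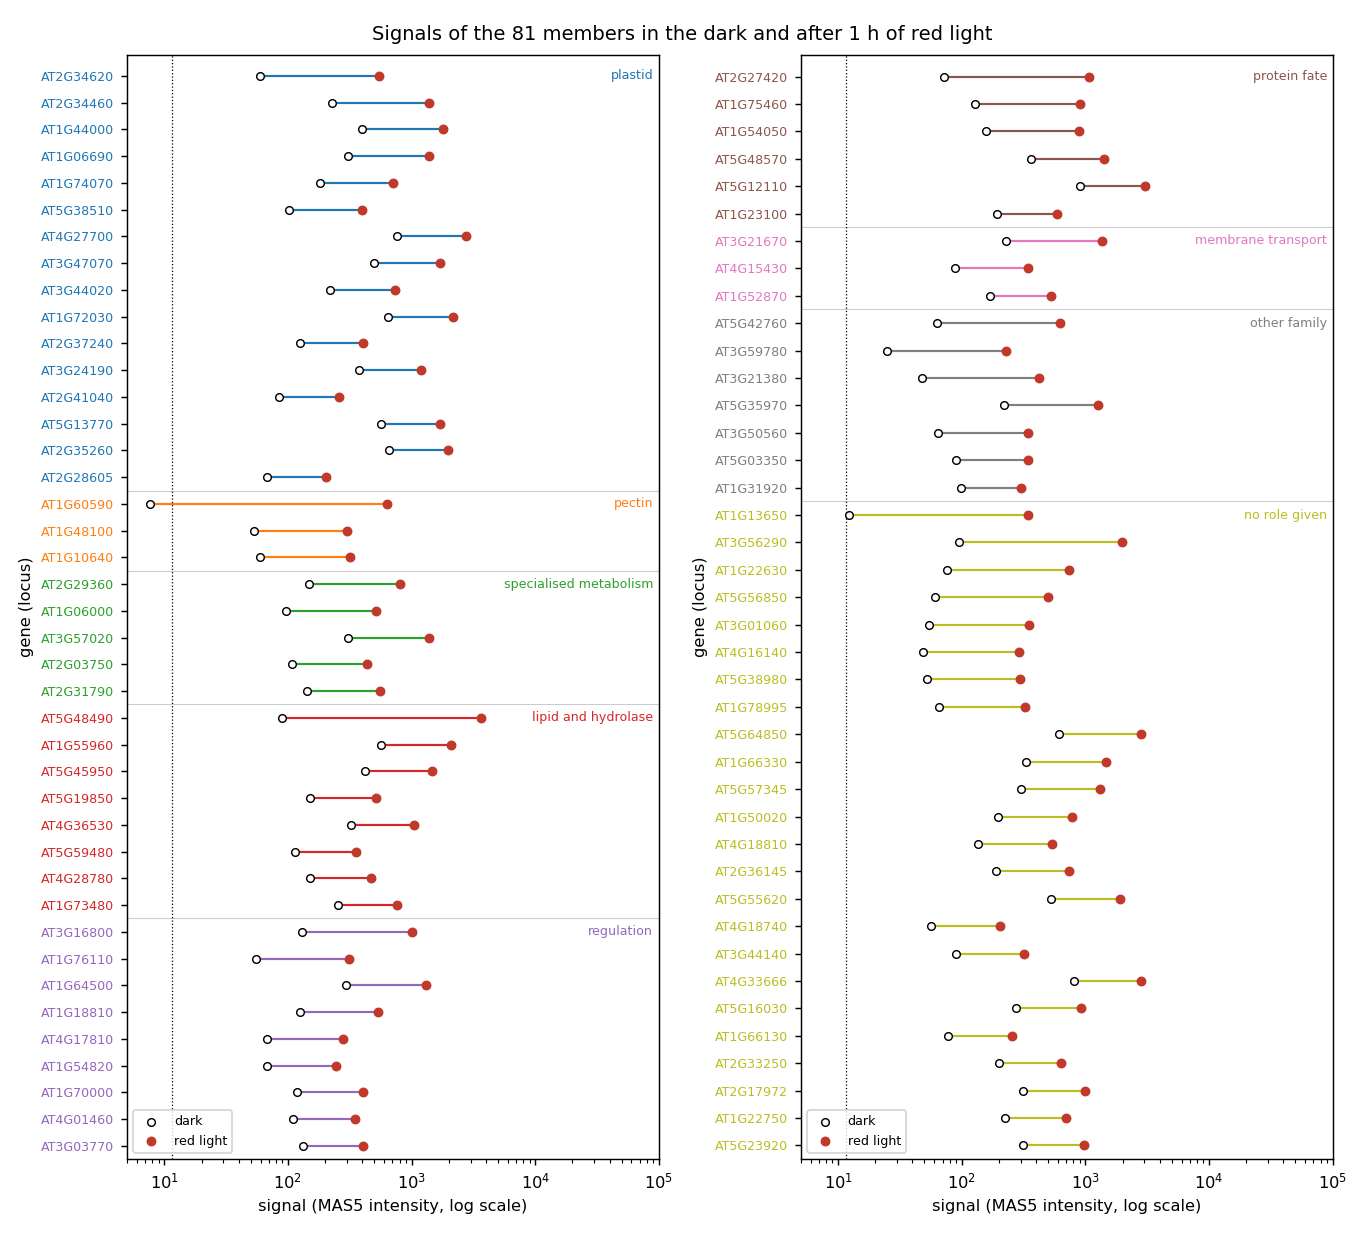
Signal of each of the 81 members in the dark (open points) and after red light (filled points), in MAS5 intensity on a log scale, ordered by role group and then by ratio; the dotted line is the highest background probe set of the dark array, 11.5. The dark point of AT1G60590 lies below that line and that of AT1G13650, at 12.2, just above it, while the other dark points lie at 25.1 or higher.

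The plastid members spanned gene expression, the thylakoid, chlorophyll turnover and redox enzymes. AT2G34620, an mTERF family protein that acts in organelle gene expression, had a signal of 548 in red light and of 59.0 in darkness, 9.29-fold higher. Below, the red light signal always comes first. AT2G34620 led the plastid group by ratio, while its relatives AT4G09620 (669 and 617) and AT3G18870 (70.4 and 58.7) were 1.08-fold and 1.20-fold higher. AT5G13770, a pentatricopeptide repeat protein of the kind that handles organelle transcripts, had 1706 and 563, 3.03-fold higher. AT1G72030, a plastid acetyltransferase of the GNAT type, had 2143 and 650, 3.30-fold higher.

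A further 4 plastid members belong to the thylakoid, the membrane system of the light reactions. AT1G74070, a cyclophilin-type isomerase of the thylakoid lumen, had signals of 705 and 180, 3.91-fold higher. AT3G47070, a thylakoid soluble phosphoprotein linked to the antenna, had 1688 and 494, 3.42-fold higher. AT3G44020, a lumen protein, had 731 and 220, 3.33-fold higher. AT2G28605, a PsbP-domain protein, had 202 and 67.3, 3.004-fold higher, next to both thresholds of the rule.

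A pair of members act on chlorophyll. AT1G44000, a STAY-GREEN-like protein of chlorophyll breakdown, had signals of 1808 and 395, 4.58-fold higher. AT2G35260, a thylakoid protein that balances chlorophyll synthesis and breakdown, had 1978 and 658, 3.01-fold higher. Its relative AT4G17840 had 498 and 181, 2.75-fold higher, short of the rule.

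Another pair was assigned to plastoglobules, the lipid droplets of plastids, and other members may lie there too. AT3G24190, an ABC1-type atypical kinase, had signals of 1198 and 378, 3.17-fold higher, and AT2G41040, a methyltransferase-like protein, had 260 and 84.3, 3.08-fold higher. Of 6 plastoglobule kinases of that type, 3 have a probe set of their own. Beside AT3G24190, AT1G71810 had 419 and 143, 2.93-fold higher, and AT5G05200 had 1152 and 772, 1.49-fold higher. The latter 2 did not meet the rule.

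The remaining plastid members are mostly enzymes and redox proteins. AT2G34460, an NAD(P)-binding protein, had signals of 1374 and 228, 6.03-fold higher. AT1G06690, of the aldo/keto reductase family, had 1375 and 305, 4.51-fold higher. AT5G38510, a rhomboid-like intramembrane protease, had 397 and 102, 3.88-fold higher. The rhodanese-like AT4G27700 was 3.60-fold higher at 2754 and 766, and the thioredoxin-like AT2G37240 3.29-fold higher at 408 and 124. Of the 16 plastid members 4 reached 4-fold, and of the other 65 members 33 did. Those 65 include the 24 with no role and may hold further plastid proteins, and roles were assigned after the values were known. No difference in response between plastid and other genes is read from these counts.

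Members that act on the cell wall were 3 polygalacturonase-like proteins of the pectin lyase superfamily, which cut the pectin backbone. AT1G60590 had signals of 637 and 7.7, the dark one under the highest background probe set of that array, so its ratio of 82.7 is poorly bounded. Set against that background signal of 11.5 it was 55.4-fold higher, and with 22.1 added to both signals 22.1-fold higher. AT1G48100 had signals of 298 and 53.0, 5.63-fold higher, and AT1G10640 had 316 and 59.3, 5.32-fold higher. All 3 had dark signals under the array's 40th percentile.

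Enzymes assigned to specialised metabolism, the making or modifying of protective compounds, numbered 5. AT2G29360, AT3G57020 and AT2G03750 were placed there by protein family alone, and what they make is not known here. AT2G29360, a tropinone reductase-like dehydrogenase, had signals of 806 and 147, 5.47-fold higher. AT1G06000, a flavonol rhamnosyltransferase, had 515 and 95.6, 5.38-fold higher, and AT3G57020, of the strictosidine synthase-like family, had 1395 and 304, 4.59-fold higher. AT2G03750, a sulfotransferase family gene, was 4.08-fold higher, and AT2G31790, a glycosyltransferase of glucosinolate synthesis, 3.88-fold higher.

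A pair of these lie near at least 1 relative that was higher too. AT3G57010, next to AT3G57020 and of the same family, had signals of 1975 and 667, 2.96-fold higher, just outside the rule. AT2G29360 belongs to a run of 12 tropinone reductase-like genes on chromosome 2, of which 11 have a probe set of their own. In 4 of these at least 1 signal reached 200. Beside AT2G29360, AT2G29340 had 733 and 246, 2.97-fold higher, while TRI had 406 and 319, 1.27-fold higher, and AT2G29290 had 300 and 248, 1.21-fold higher. Probe sets of such similar genes may read each other's transcripts.

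Among lipid-binding proteins and hydrolases, AT5G48490, a lipid transfer protein related to DIR1, had 3646 and 90.3. It was 40.4-fold higher, a gain in signal of 3555. AT1G55960, with a lipid-binding START domain, had 2100 and 560, 3.75-fold higher. AT5G45950, a GDSL-type esterase or lipase, had 1475 and 419, 3.53-fold higher. The other 5 were AT5G19850, AT4G36530 and AT1G73480 (alpha/beta hydrolases), AT5G59480 (a HAD-type hydrolase) and AT4G28780 (GDSL type), between 3.004-fold and 3.41-fold higher.

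Regulators numbered 9. AT3G16800, a PP2C-type protein phosphatase, had signals of 1004 and 131, 7.67-fold higher. Of its close relatives, AT5G27930 had 321 and 278, 1.15-fold higher, and AT3G05640 had 328 and 355, a log2 ratio of -0.11. AT1G76110, an HMG-box protein with an ARID DNA-binding domain, had 314 and 54.8, 5.73-fold higher.

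AT1G64500, an actin-bundling protein of chloroplast movement, had signals of 1310 and 292, 4.48-fold higher. AT1G18810, of the phytochrome kinase substrate family, which acts in phototropin and phytochrome responses, had 531 and 125, 4.25-fold higher. AT4G17810, a C2H2 zinc finger protein, had 279 and 67.8, 4.12-fold higher. The MYB-related AT1G70000 was 3.40-fold higher at 406 and 119, and the bHLH factor AT4G01460 3.16-fold higher at 346 and 109. Lastly, the kinase family genes AT1G54820 and AT3G03770 were 3.62-fold and 3.01-fold higher.

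Chaperones, proteases and a translation factor made up 6 members. AT2G27420, a papain-like cysteine protease, had signals of 1069 and 72.2, 14.8-fold higher. AT1G75460, of the LON protease domain family, had 907 and 128, 7.08-fold higher. AT5G12110, a subunit of translation elongation factor EF1B, had 3028 and 903, 3.35-fold higher.

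The chaperones were AT1G54050, a class III small heat shock protein (881 and 156, 5.65-fold higher), AT5G48570, the FKBP-type isomerase FKBP65 or ROF2 (1407 and 367, 3.84-fold), and the GroES-like AT1G23100 (595 and 193, 3.08-fold). Of 13 small heat shock genes looked up, 6 have a probe set of their own and 4 had a signal of at least 200. Beside AT1G54050, AT5G51440 had 954 and 373, 2.56-fold higher, and AT2G29500 had 476 and 333, 1.43-fold higher. AT1G53540 had 152 and 241, a log2 ratio of -0.66, so the signals of these 4 did not all go one way.

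Members assigned to membrane transport numbered 3. AT3G21670, named NPF6.4 of the NRT1/PTR nitrate and peptide transporter family in the gene table, had signals of 1376 and 227, 6.06-fold higher. AT4G15430, of the OSCA channel family, had 344 and 88.1, 3.90-fold higher, and AT1G52870, of the PMP22/Mpv17 family, had 530 and 170, 3.12-fold higher.

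Another 7 members belong to protein families of mixed function. AT5G42760, of the leucine carboxyl methyltransferase family, had signals of 628 and 63.6, 9.88-fold higher. AT3G59780, rhodanese-like, had 230 and 25.1, 9.16-fold higher, and AT3G21380, a jacalin-type lectin, had 424 and 47.6, 8.91-fold higher. The P-loop nucleoside triphosphatase AT5G35970 was 5.71-fold higher at 1261 and 221. AT3G50560 (Rossmann fold), AT5G03350 (legume-type lectin) and AT1G31920 (helical repeat protein) were 5.40-fold, 3.82-fold and 3.06-fold higher.

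For 24 members no role is given, and some have ratios among the largest. AT1G13650 had signals of 344 and 12.2, 28.2-fold higher, with a dark signal just above background. AT3G56290 had 1980 and 94.8, 20.9-fold higher. AT1G22630 was 9.57-fold higher at 732 and 76.5, AT5G56850 8.29-fold at 500 and 60.3, and AT3G01060 6.45-fold at 350 and 54.2.

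AT5G64850, AT4G33666 and AT5G55620 had ratios of 4.66, 3.49 and 3.66. Their signals were 2842 and 610, 2808 and 805, and 1918 and 525. AT4G16140, AT5G38980, AT1G78995, AT1G66330 and AT5G57345 were between 4.32-fold and 5.96-fold higher. AT1G50020, AT4G18810, AT2G36145, AT4G18740, AT3G44140, AT5G16030, AT1G66130, AT2G33250, AT2G17972, AT1G22750 and AT5G23920 were between 3.11-fold and 3.96-fold higher.

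**Figure D3:**
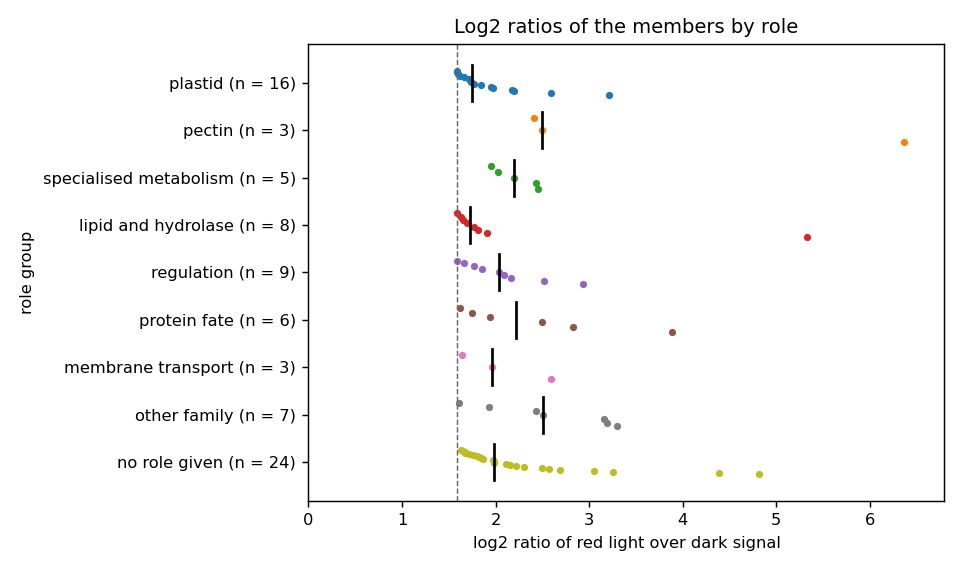
Log2 ratio of red light over dark signal for each member, by role group; the black bar is the group's median and the dashed line the rule's 3-fold. The plastid group has a median of 1.75 and a highest value of 3.22, and single members of the pectin (6.37) and lipid (5.34) groups lie far to the right. The first, AT1G60590, rests on a dark signal under background and is 4.47 with the added 22.1, below the 5.03 of AT5G48490 on that scale.

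The members had a range of dark signals. Of the 81, 29 (35.8%) had a dark signal under 97.1, the 40th percentile of the dark array. The count was 2 under its 25th percentile of 20.8 (AT1G60590 and AT1G13650), and only AT1G60590 lay under the highest background probe set. Another 29 members had a dark signal of at least 200, and 11 one of at least 400. The rule itself shapes the first share, since any probe set with a red light signal of 200 and a low enough dark signal passes it. Of the 39 locus-named probe sets with a red light signal of at least 200 and a dark signal under 97.1, the 10 that were not members had ratios from 2.24 to 2.98. These 10 were 0.201% of the 4971 locus-named non-members with a red light signal of at least 200. Among the 38 lowered probe sets, 15 (39.5%) had a red light signal under the 40th percentile of that array.

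Raised probe sets outnumbered lowered ones in each band with a lower signal between 50 and 1000. With dark signals from 50 to 100, 25 of 972 locus-named probe sets were members (2.57%), while 8 of 922 with red light signals in that band were lowered (0.868%). From 200 to 400 the counts were 18 of 1575 (1.14%) and 6 of 1614 (0.372%), and from 400 to 1000 they were 11 of 1930 (0.570%) and 5 of 2036 (0.246%). Under 50 the order turned, with 5 raised and 7 lowered. At 1000 or more there were 0 of either.

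**Figure D4:**
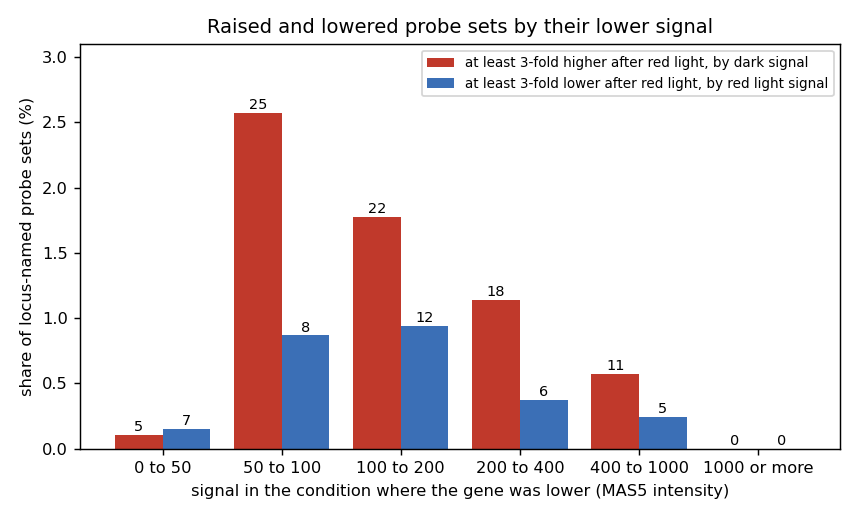
Share of locus-named probe sets (%) higher by 3-fold or more after red light, grouped by dark signal (red bars), and lower by 3-fold or more, grouped by red light signal (blue bars), with counts above the bars. Red bars exceed blue bars in the bands from 50 to 1000, and the share of members falls from 2.57% at 50 to 100 to 0.570% at 400 to 1000.

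Just inside the ratio threshold lay AT1G73480, AT2G28605, AT2G35260 and AT3G03770, with ratios of 3.004 to 3.01. Just outside it lay AT1G72640, AT2G29340, AT5G02830 and AT3G57010, with ratios of 2.98, 2.97, 2.96 and 2.96. At the signal threshold AT2G28605, AT4G18740, AT3G59780 and AT1G54820 were inside at 202 to 245. Outside were AT5G10120 (198), AT4G11710 (190), AT2G30560 (187) and AT3G52740 (178). AT3G52740, an inhibitor of cryptochrome photoreceptors, had a dark signal of 17.2 and was 10.4-fold higher, and AT4G11710 had 12.4 and was 15.3-fold higher.

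The members were spread over all 5 chromosomes, with 27 on chromosome 1, 13 each on 2 and 3, 10 on 4 and 18 on 5. As a share of locus-named probe sets with a red light signal of at least 200 this was 2.04% on chromosome 1, 1.79% on 2, 1.24% on 3, 1.40% on 4 and 1.45% on 5. Of the 162 protein-coding genes adjacent to them in the gene table, 74 have a probe set of their own. Of the 46 of these with a signal of at least 200, 4 were higher by 2-fold or more (8.70%) and 1 was lower by as much (2.17%). Over all 6245 such genes these shares were 4.98% and 2.67%. The 4 were AT3G57010, AT1G13670 (next to AT1G13650, 2.64-fold), AT3G21390 (next to AT3G21380, 2.51-fold) and AT4G33660 (next to AT4G33666, 2.01-fold).

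Of the 81 members 62 stayed at least 3-fold higher when the arrays were centred on the median or on the hybridization controls, loess-corrected or quantile-normalized, and when 22.1 was added to each signal. The 19 that did not had ratios of 3.62 or less. They include the plastid members AT2G28605, AT2G35260, AT5G13770, AT2G41040 and AT2G37240, the regulators AT1G54820, AT3G03770 and AT4G01460, and AT1G23100, AT1G52870, AT1G31920, AT1G73480, AT4G28780 and AT5G59480. From the members with no role they include AT4G18740, AT1G66130, AT2G33250, AT1G22750 and AT5G23920. Adding 22.1 alone kept 62 of the members, so it set that count. Median centring kept 74, and quantile normalization and loess kept 70 each. Centring on the hybridization controls kept all 81, since it raised every ratio. The addition took the ratio of AT1G60590 from 82.7 to 22.1, of AT1G13650 from 28.2 to 10.7 and of AT3G59780 from 9.16 to 5.34.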

How the data were processed

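Expression was measured on 2 Affymetrix arrays, 1 per group. The deposited values are linear intensity values per probe set, which per the submitters' processing notes come from MAS5 (version 5). The sources used here do not give its settings, and detection calls were not used. The mean without the lowest and highest 2% was 500.0 on both arrays, so no scaling was added. Signals of different probe sets are not amounts of transcript and are compared only within a probe set.

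Members were selected on red light signal (at least 200) and ratio (at least 3). A log2 ratio is red light over dark. The array annotation named 1 gene by locus for 11933 probe sets, 1 gene by symbol for 1580 and several for 503, and 8730 were unlisted. With 1 array per group there is no test, and precision is limited by the number of arrays. The planned counts from protein and promoter sequences were not run. No sequence is shown and no coordinates are given, since no build is named with the values.

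Named were the 15 largest ratios, the 3 highest red light signals per role group, members under background, plastid members and those at the thresholds; naming the others, the role groups and the relatives looked up came after the values were seen. Members and lists were chosen with earlier results of these data known. Python 3.11.15, numpy 2.4.6, pandas 2.3.3, scipy 1.17.1, statsmodels 0.14.6 and matplotlib 3.10.9 were used.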

Additional observations from a re-analysis of the deposited data

Results flagged for a closer look

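A signal also appeared outside the locus-named probe sets. Of the probe sets that the annotation does not list, 133 met both signal thresholds, and so did 3 that name several genes. These were 2.56% of 5203 and 1.24% of 241 with a red light signal of at least 200. None of them is a member, but they are part of the shares over all non-control probe sets given above. Among the unlisted ones, 260380_at had signals of 573 and 7.0 and 253971_at 245 and 4.3, both with a dark signal below background (11.5), so no ratio is given. With dark signals above background, 258321_at had 3894 and 45.9, 84.8-fold higher, and 249769_at had 690.1 and 19.2, 35.9-fold higher. The unlisted 254016_at had 1186 and 48.7, 24.4-fold higher, and 252123_at had 1947 and 113, 17.3-fold higher.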

How the results depend on the processing

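No paired analysis was possible because there was only 1 array in either group, and no array could be left out. The number of members, 81 as reported, was 165 with centring on the hybridization controls, 266 at 2-fold and 37 at 4-fold. Between 58 and 109 were found with median centring, quantile normalization, loess, the added 22.1, and red light thresholds of 100 and 400. The median log2 ratio of the members, 1.97, was 1.34 at 2-fold and 2.51 at 4-fold, as those thresholds set it. The share with a low dark signal, 35.8%, was 14.7% at 2-fold, 56.8% at 4-fold, 52.3% with a red light threshold of 100 and 17.2% with 400. With the level at the highest background probe set it was 1.23%, and at the 25th percentile 2.47%. The share of plastid members, 19.8%, was 10.8% at 4-fold; settings that add genes gave no value for it, as only the 81 were given roles. That share, and leaving out the 2 members that the gene table names, were added after seeing the data. No member's probe set has a suffix for cross-hybridization. For medians, a move under 0.33 (the SD between probe sets of the same gene, 18 pairs) counted as no change. Counts of transit-peptide-like N-termini and of promoter motifs were not run.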
